A study of Rattus norvegicus with 33 samples.

Results

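The comparison described here asks what 10 days of testosterone and estradiol did to the RNA of prostates that had been exposed to estrogen after birth. Its members are the 3 arrays titled EBTE and the 3 titled EB at postnatal day (PND) 100, 6 of the 33 arrays of the series, taken from the sample titles. All animals were male Sprague-Dawley rats. In both groups newborn pups were injected under the skin with the estrogen ester estradiol benzoate (EB) at 2.5 mg/kg on PND 1, 3 and 5. On PND 90 the EB+T+E animals were given 2 silastic implants filled with testosterone (T) and 1 filled with estradiol (E), and the EB animals were given 3 empty implants, so the groups differ in the content of the implants. Control animals (vehicle after birth, empty implants) and T+E animals (vehicle, then hormone implants) of PND 100, with 3 arrays each, and the same EB and EB+T+E treatments at PND 145, with 4 and 3 arrays, serve only to place the values. By the labels 3 to 4 litters stood behind a group. The sources used here do not say whether an array held 1 animal or pooled tissue. The p-values therefore cover only a spread among arrays, which may be technical. That spread was pooled over all 33 arrays of the series and is not that of the 6 compared.

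The rat prostate is a set of lobes in which androgen keeps luminal cells secreting and sets their growth. Estrogen given in the first days of life alters how the gland later responds to hormones, and a later period of raised estradiol with testosterone is a standard rat model of prostate inflammation and precancerous growth. Bulk tissue RNA was measured, so fewer cells of a type and less RNA per cell cannot be told apart.

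Each array carried 58717 spots, and on these 6 arrays 61.7% to 68.1% of them were well above background. Levels below are log2 of the signal relative to the 75th percentile of the array, so 0 is the 75th percentile itself. Levels of different genes are not compared, because each probe has its own brightness. The samples are labelled as whole prostate and the series title names the dorsolateral lobes. The dorsolateral secretory genes Msmb, Pbsn and Tgm4 were well above background on all 6 arrays, and so were the ventral lobe products Scgb1d2, Scgb1d4, Scgb2a1 and Sbp. Some arrays stood apart within their group. The mean level of 19 luminal epithelial genes was -2.09 on EB+T+E 1 against 0.49 and 0.71 on EB+T+E 2 and 3 and -0.03 to 0.67 on the EB arrays. Correlations over all genes were lowest, at 0.864, between EB+T+E 1 and EB+T+E 3, and highest, at 0.961, between EB 1 and EB+T+E 3, arrays of different groups. Slide 1 held EB 2 and EB+T+E 1, slide 2 held EB 3 and EB+T+E 2, and slide 4 held EB 1 and EB+T+E 3, so each of these slides gives a difference of its own.

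Genes higher with T+E added to EB included Timp1, Cd163, Tfrc and genes of cell division and glycolysis, and genes lower included Fgfr2, Bmp7, Sox9 and regulators of chromatin. The glycolysis and chromatin regulator genes were grouped after the values were seen. Of 23134 genes tested, 394 (1.70%) differed at an adjusted p under 0.05 in limma, 162 of them higher (0.700%) and 232 lower (1.00%). The sizes ran from 0.48 to 5.35 on the log2 scale, and the median over all genes was -0.05. The arrays of the groups did not overlap for 373 of the 394 genes, against 10.9% of all genes. In 385 the difference had the sign of the fit on each of the 3 slides, which is fixed in advance where the arrays do not overlap. Both counts describe genes chosen by p on these same arrays. At an unadjusted p under 0.05 the count was 3622 (15.7%).

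These counts rest on a spread estimated over all 33 arrays and on single arrays. A fit of only the 6 arrays called 0 genes in limma, with 976 at an unadjusted p under 0.05. Without EB+T+E 1 the count was 47, without EB 3 it was 23 and without EB 2 it was 138, while it rose to 694 without EB 1, to 1174 without EB+T+E 2 and to 1113 without EB+T+E 3. Deviations of the 2 arrays of a slide correlated at 0.13, 0.13 and 0.55 on slides 1, 2 and 4. With slide as a block the count was 350, and of the genes taken by the naming rule Dtl, Mcm6, Tk1, Kif6, Coch and Muc1 no longer passed. The genes called in the full fit and in each of these 6 fits numbered 13. With a symbol these were Uhrf1, Ckap2l, Card19 and S100a10, which were higher, and Rims1, Slc24a3, Elapor2, Rad54b, Sema5a and Plekha6, which were lower. Features that carry 1 sequence also weigh on the higher count. Gapdh, the glycolytic enzyme glyceraldehyde-3-phosphate dehydrogenase, has many processed copies in the rat genome. Of the features tested here, 95 had a probe described as Gapdh-like or linked to one by shared runs of 20 bases. The link could be direct or pass through other probes. Of these 95 features 65 were called higher, by 1.22 to 2.42, and 0 lower. Counted as 1 gene, they leave 98 higher genes, and the 232 lower genes hold none of them.

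**Figure D1:**
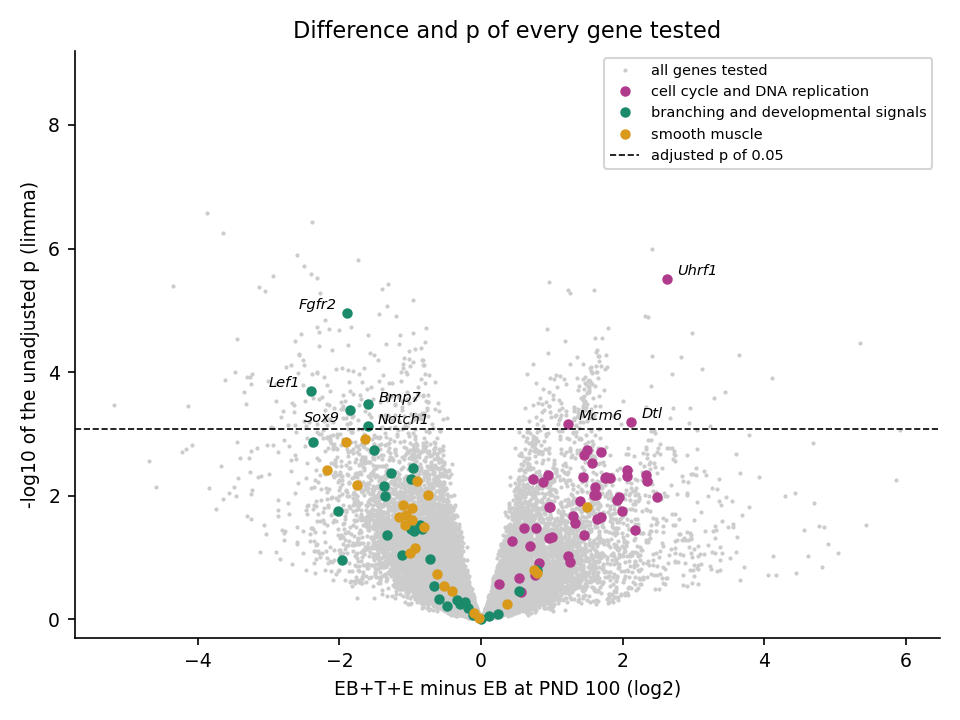
Each point is 1 of 23134 genes tested: the horizontal axis is the difference EB+T+E minus EB at PND 100 (log2) and the vertical axis is -log10 of the unadjusted p of limma. All 47 cell cycle genes lie right of 0, and 30 of 34 developmental signals and 20 of 24 smooth muscle genes lie left of it; the dashed line marks an adjusted p of 0.05.

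The cell cycle list lay on 1 side. All 47 measured genes of cell cycle and DNA replication had a positive difference, with a median of 1.45 against -0.05 over all genes, and 38 of them passed an unadjusted p of 0.05, against 6.19% of all genes in that direction. In 32 of them the groups did not overlap, against 4.63% of all genes in that direction. Only 3 passed the adjusted threshold, against 0.700% of all genes. Uhrf1, which binds hemimethylated DNA and brings in the maintenance methyltransferase, was at -9.43, -9.63 and -8.74 on EB 1 to 3 and at -6.18, -6.75 and -6.99 on EB+T+E 1 to 3. It rose by 2.63 ± 0.45 (SE; adjusted p = 0.0058 in limma), but it was well above background on only 2 of the 6 arrays, all of them EB+T+E, so its size is poorly set. Dtl, part of the ubiquitin ligase that destroys the licensing factor Cdt1 in S phase, was at -3.30, -5.34 and -3.33 in EB and at -0.64, -2.32 and -2.66 in EB+T+E. Its rise was 2.12 ± 0.55 (SE; adjusted p = 0.043), 4.34-fold. Mcm6, a subunit of the replicative helicase, was at -3.63, -3.78 and -3.08 in EB and at -1.77, -2.62 and -2.40 in EB+T+E, a rise of 1.23 ± 0.32 (SE; adjusted p = 0.044). In all 3 genes every EB+T+E array lay above every EB array.

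Genes of DNA synthesis and mitosis from the rest of the list had values in the same direction without passing the adjusted threshold. E2f1, a transcription factor of S-phase entry, differed by 1.50 (adjusted p = 0.069 in limma). Mki67, the antigen of cycling cells, differed by 1.62 (adjusted p = 0.15), Cdk1, the kinase of mitotic entry, by 1.61 (adjusted p = 0.13), and Top2a, which untangles DNA before division, by 1.95 (adjusted p = 0.15). Outside the list, Tk1, the thymidine kinase of S phase, rose by 1.97 ± 0.52 (SE; adjusted p = 0.044), from -2.38, -4.38 and -3.07 in EB to -0.53, -1.59 and -1.79 in EB+T+E. Cdkn3, a phosphatase that acts on cyclin-dependent kinases, rose by 2.09 ± 0.54 (SE; adjusted p = 0.044), from -4.01, -6.37 and -4.71 to -2.68, -3.14 and -3.01. EB 2 was the lowest of the 6 arrays for Dtl, Tk1, Cdkn3 and Mki67. The mean level of the whole list was -3.29, -4.87 and -3.31 on the EB arrays and -1.97, -2.73 and -2.54 on the EB+T+E arrays. The median of the list was 3.10 on slide 1, 0.59 on slide 2 and 0.76 on slide 4, and without EB 2 it was 0.88. Without EB 2, EB 3 or EB+T+E 1 the list held 1 called gene each time.

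Control arrays lay at -4.70 to -3.96 and T+E arrays at -4.82 to -3.44 on the same scale, below all 3 EB+T+E arrays. The median difference T+E minus control was 0.13 in this list. The difference between the T+E effect with and without EB had a median of 1.30, and 0 of the 47 genes passed the adjusted test of it. In Mcm6 it was 1.86 (adjusted p = 0.31 in limma) and in Dtl 2.97 (adjusted p = 0.31).

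The promoters of Dtl and Mcm6 are shown because E2F factors drive many S-phase genes through the sites TTTCCCGC and TTTGGCGC. The E2F sites and these promoters were chosen after the values were seen, as called cell cycle genes with a site at their only listed start. Uhrf1, the other called gene of the list, has 3 listed starts, of which 1 holds a site and the first listed does not, and it is not shown. Each sequence is the 250 bases before the annotated start, on the strand of the gene, from RefSeq on GRCr8, and capitals mark an E2F site on either strand.

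Dtl: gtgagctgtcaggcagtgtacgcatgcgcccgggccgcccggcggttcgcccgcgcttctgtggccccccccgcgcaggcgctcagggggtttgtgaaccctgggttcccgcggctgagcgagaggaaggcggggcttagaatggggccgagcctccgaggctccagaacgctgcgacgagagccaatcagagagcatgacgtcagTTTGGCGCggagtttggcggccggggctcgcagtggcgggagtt
Mcm6: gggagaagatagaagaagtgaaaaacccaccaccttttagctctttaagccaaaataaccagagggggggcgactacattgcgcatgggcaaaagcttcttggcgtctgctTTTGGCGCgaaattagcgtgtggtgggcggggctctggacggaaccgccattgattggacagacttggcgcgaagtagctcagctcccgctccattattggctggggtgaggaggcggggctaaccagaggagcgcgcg

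The Dtl promoter lies at chr13:105685922-105686171 on the minus strand and its site begins 44 bases before the start. The Mcm6 promoter lies at chr13:42404353-42404602, also on the minus strand, and its site begins 139 bases before the start. At the first listed start of each gene, 6 of the 36 cell cycle genes with a promoter in the table held either site, against 346 of 27457 genes in all (1.26%) and 273 of 13546 genes tested (2.02%). Over every listed start the counts were 7 of 36, 368 of 27457 (1.34%) and 284 of 13546 (2.10%). None of the 25 promoters of the developmental list held one. The full palindromic estrogen response element, searched on both strands, was at the first start of 6 of the 27457 genes, and each of the 2 forms of the androgen response element searched was in 1. None of the 197 called genes with a promoter (47 higher, 150 lower) held any of these 3 elements at any listed start, which says only that these letters are not in this window.

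The 10 largest rises among genes with a symbol, well above background on all 6 arrays and without overlap, included genes of macrophages, matrix and iron uptake beside cell cycle genes. Cd209f, a lectin of the DC-SIGN family, was at -1.65, -3.76 and -6.01 in EB and at 0.46, -0.26 and -1.29 in EB+T+E, a rise of 3.44 ± 0.80 (SE; adjusted p = 0.027 in limma). Cd163, the macrophage receptor for hemoglobin complexes, was at -2.74, -1.82 and -1.53 in EB and at 3.09, 0.25 and -1.31 in EB+T+E. It rose by 2.71 ± 0.67 (SE; adjusted p = 0.033), with EB+T+E 3 only just above EB 3. Timp1, an inhibitor of matrix metalloproteinases that rises when androgen is withdrawn, was at 1.59, 0.50 and 1.30 in EB and at 5.46, 2.98 and 3.03 in EB+T+E. The rise of Timp1 was 6.47-fold (2.69 ± 0.59 on the log2 scale, SE; adjusted p = 0.021). Tfrc, the transferrin receptor, rose by 1.80 ± 0.35 (SE; adjusted p = 0.013), from -1.27, -2.35 and -2.19 to 0.12, -1.10 and 0.58. Aldh1l2, the mitochondrial formyltetrahydrofolate dehydrogenase, rose by 2.32 ± 0.43 (SE; adjusted p = 0.011), from -5.29, -6.36 and -5.52 to -2.38, -3.46 and -4.36. Tnnc1, a troponin of slow muscle fibres, rose by 2.98 (adjusted p = 0.014) and 2310002L09Rikl by 2.01 (adjusted p = 0.030). In 9 of these 10 genes EB+T+E 1 was the highest of the 6 arrays, and without that array 0 of the 10 passed. The EB arrays mattered too, as 1 of the 10 passed without EB 3 and 2 without EB 2. Without EB 1 it was 9, and without EB+T+E 2 or EB+T+E 3 it was 10. All 10 kept their sign, which was fixed by the choice of genes without overlap.

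**Figure D2:**
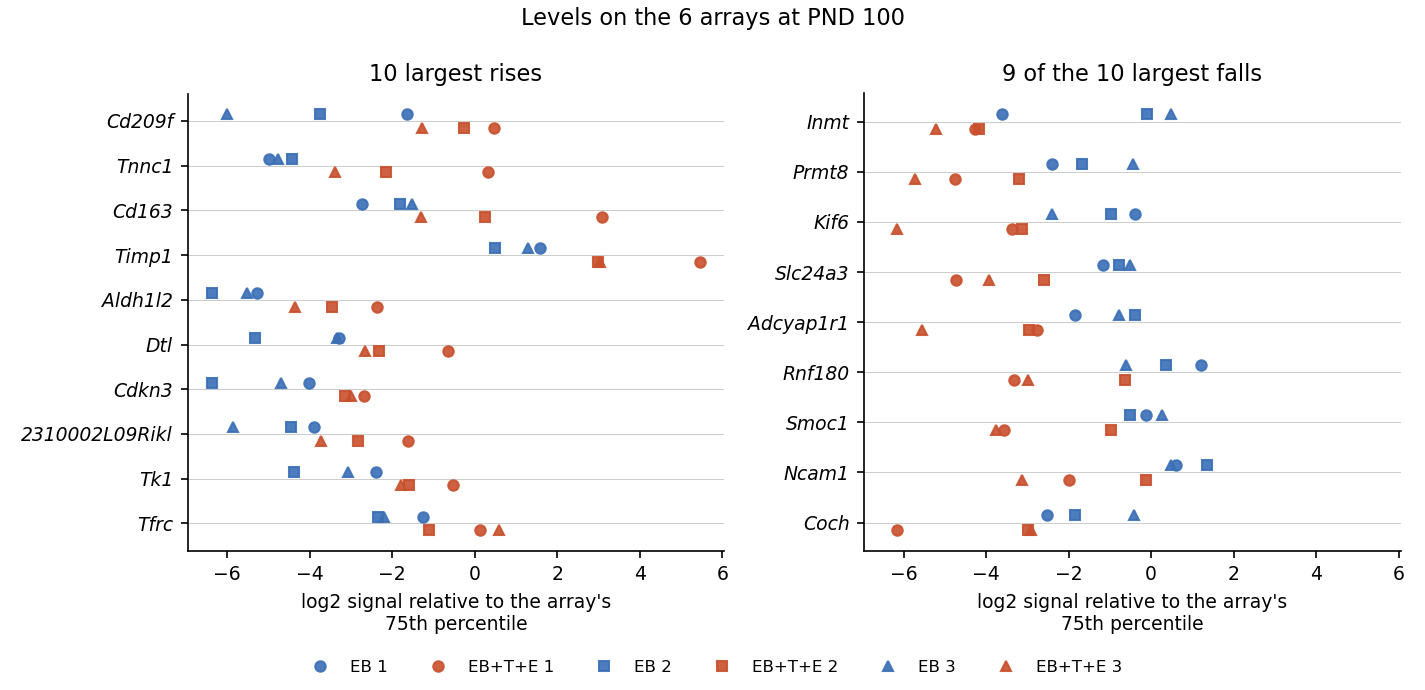
Levels of the 10 largest rises (left) and 9 of the 10 largest falls (right) on each array, as log2 signal relative to the 75th percentile of the array; blue marks the EB arrays and red the EB+T+E arrays, with circle, square and triangle for replicates 1, 2 and 3. The colours do not overlap in any row, and for Cd163 the triangles nearly touch, at -1.53 (EB 3) and -1.31 (EB+T+E 3).

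Glycolytic enzymes, tubulins and enzymes of the citric acid cycle were grouped into lists after the values were seen, so their counts only describe. Of 20 glycolytic genes 4 were called higher, against 0.700% of all genes, and 0 lower, with a median of 0.73. Eno1 (enolase) rose from 0.81, 1.41 and 1.05 to 2.30, 1.70 and 2.04, by 0.93 ± 0.18 (SE; adjusted p = 0.013 in limma). Pgk1 (phosphoglycerate kinase) rose from 3.06, 3.35 and 3.23 to 5.17, 4.04 and 3.74, and Gapdh from 1.70, 2.10 and 1.73 to 4.37, 3.04 and 2.44. Tpi1 (triosephosphate isomerase) rose by 1.09 (adjusted p = 0.044), and like Gapdh it has close copies whose RNA its probe may bind. All 13 tubulin genes had a positive difference and 3 were called, against 0.700% of all genes: Tubb2a by 1.44, Tubb5 by 1.11 and Tuba1c by 1.11. Of 22 genes around the citric acid cycle 3 were called higher, against 0.700% of all genes, namely Cs (citrate synthase, 0.73), Got2 (mitochondrial aspartate aminotransferase, 1.17) and Cycs (cytochrome c, 1.11). Without EB+T+E 1, or without EB 3, 0 genes of these 3 lists were called, and the median of the glycolytic list was 0.40 and 0.58. Without EB 2, 0 tubulin genes and 1 glycolytic gene were called.

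Markers of skeletal muscle moved with these rises on 2 of the 3 EB+T+E arrays, and markers of nerve varied by gene. The summed signal of 21 skeletal muscle genes, in multiples of the 75th percentile, was 473 and 219.9 on EB+T+E 1 and 2 and 4.06 on EB+T+E 3, against 13.5 to 42.4 on the EB arrays. Acta1, the actin of skeletal muscle fibres, was at 4.59 and 3.02 on EB+T+E 1 and 2, at -1.67 on EB+T+E 3 and at -0.19 to 0.30 on the EB arrays. The median of that list was 4.34 on slide 1, 5.31 on slide 2 and -2.23 on slide 4. In it 1 of 21 genes (Tnnc1) was called higher, against 0.700% of all genes. The nerve list had a median of 1.57 with 0 of 27 genes called, and medians of 3.99, 1.16 and -0.24 on slides 1, 2 and 4. In 8 of the 27 every EB+T+E array lay above every EB array, against 4.63% of all genes. One of these, Uchl1, was at -0.24, -2.66 and -0.70 in EB and at 1.13, 0.56 and 0.73 in EB+T+E. Vip, a peptide of prostate nerves, was at -9.27, -8.11 and -4.10 in EB and at 1.32, -0.88 and -4.14 in EB+T+E (adjusted p = 0.0503). On slide 4, where EB+T+E 3 lies below EB 1 in muscle genes, the median difference was 0.76 for the cell cycle list and 0.27 for glycolysis. The part of muscle or nerve tissue in the other differences was not tested.

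Of 34 genes of branching and developmental signalling 0 were called higher and 5 lower (1.00% of all genes), 18 were lower at an unadjusted p under 0.05 (9.46% of all genes), and the median was -0.96. Fgfr2, the epithelial receptor for the stromal growth factors FGF7 and FGF10, was at 0.63, 1.18 and 1.98 in EB and at -1.43, 0.31 and -0.78 in EB+T+E. It fell by 1.90 ± 0.35 on the log2 scale (SE; adjusted p = 0.011 in limma), 3.73-fold. Bmp7, a bone morphogenetic protein that restrains branching, was at -0.38, 0.42 and -0.09 in EB and at -2.40, -0.59 and -1.85 in EB+T+E (adjusted p = 0.032). Sox9, a transcription factor of prostate buds, was at -1.08, -1.37 and -1.68 in EB and at -4.28, -2.35 and -3.04 in EB+T+E (adjusted p = 0.034). Lef1, a transcription factor at the end of Wnt signalling, fell by 2.40 on the log2 scale (adjusted p = 0.027) and was well above background on only 2 of the EB+T+E arrays. Notch1, a receptor of cell fate decisions, was at -0.72, -0.34 and 0.73 in EB and at -1.58, -1.03 and -2.53 in EB+T+E (adjusted p = 0.046). In all 5 genes the groups did not overlap, and EB+T+E 2 was the EB+T+E array nearest to EB. Fgf10, the ligand of Fgfr2 made in the mesenchyme, was at -2.89, -3.68 and -1.79 in EB and at -4.48, -3.90 and -4.53 in EB+T+E, and missed the adjusted threshold (-1.52; adjusted p = 0.069). Wnt2, a Wnt ligand, was dim on every EB+T+E array and was at least 3.20-fold lower (adjusted p = 0.062). The median of the list was -0.63, -0.70 and -1.41 on slides 1, 2 and 4. Without EB 3 or without EB+T+E 1, 0 of the 34 genes were called, with medians of -0.64 and -1.18.

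Signalling genes next to that list were grouped after the values were seen. In the BMP and TGF-beta pathway 6 of 43 genes were called lower, against 1.00% of all genes, and 0 higher. They were Bmp7, the decoy receptor Bambi (-1.65), the inhibitory Smad7 (-1.55), the BMP antagonists Chrdl1 (-1.74) and Smoc1 (-2.64), and the matrix protein Smoc2 (-1.64). Apart from Bmp7 itself, these are known mainly as modulators or feedback inhibitors of BMP and TGF-beta signalling. Smad7 was at -1.77, -1.33 and -0.93 in EB and at -3.12, -1.94 and -3.63 in EB+T+E, with no overlap. In the Wnt pathway 3 of 53 genes were called lower, against 1.00% of all genes, and 0 higher, namely Wnt2b (-2.89), Lef1 and Notum (-2.14), an extracellular enzyme that inactivates Wnt ligands. In the retinoid pathway 3 of 20 were called lower, against 1.00% of all genes, and 0 higher. These were Stra6, a receptor for retinol uptake (-2.08), Crabp1, a cytosolic carrier of retinoic acid (-3.24), and Cyp26a1, which degrades retinoic acid and was at least 3.11-fold lower, with 0 of 3 EB+T+E arrays well above background. Without EB 3, 1 gene of the BMP list and 0 of the Wnt and retinoid lists were called lower, and without EB+T+E 1 the counts were 0, 1 and 1. Without EB 2 each list held 1. Without EB+T+E 3 the BMP list held 3, the Wnt list 3 and the retinoid list 0.

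In a list of chromatin regulators, also made after the values were seen, 9 of 37 genes were called lower, against 1.00% of all genes, 0 were called higher, and the median was -0.44. Without EB 3, 0 of the 37 were called, without EB+T+E 1 it was 1 and without EB 2 it was 3. The acetyltransferase gene Crebbp was at -0.03, 0.17 and 0.56 in EB and at -0.84, -0.53 and -0.80 in EB+T+E, a fall of 0.95 ± 0.17 on the log2 scale (SE; adjusted p = 0.0072 in limma). Kmt2a, a histone H3 lysine methyltransferase, was at -0.85, -0.69 and -0.52 in EB and at -1.93, -1.69 and -1.50 in EB+T+E, and its relatives Kmt2c (-0.85) and Kmt2e (-0.77) were also lower. The Polycomb genes Bcor (-1.10), Pcgf2 (-1.05), Cbx7 (-1.27) and Phf1 (-1.12) and the corepressor gene Spen (-0.82) made up the rest. Of 24 genes of DNA methylation and repressive chromatin, 1 was called higher, Uhrf1, and 1 was called lower, against 0.700% and 1.00% of all genes. Setdb1 (-0.53; adjusted p = 0.21) and the de novo methyltransferase gene Dnmt3b (-0.68; adjusted p = 0.28) did not pass.

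The 10 largest falls were of mixed function. Inmt, an indolethylamine methyltransferase, was at -3.62, -0.11 and 0.48 in EB and at -4.28, -4.17 and -5.22 in EB+T+E, a fall of 3.47 ± 0.76 on the log2 scale (SE; adjusted p = 0.021 in limma). Slc24a3, a sodium, potassium and calcium exchanger, was at -1.16, -0.78 and -0.51 in EB and at -4.74, -2.60 and -3.93 in EB+T+E (adjusted p = 0.0058). Prmt8, a membrane-bound arginine methyltransferase, was at -2.40, -1.68 and -0.44 and then at -4.77, -3.20 and -5.72 (adjusted p = 0.0058). Ncam1, a neural adhesion molecule, was at 0.61, 1.35 and 0.48 and then at -1.99, -0.12 and -3.14 (adjusted p = 0.018). Others among the 10 were Kif6 (-2.97), a kinesin, Adcyap1r1 (-2.75), the receptor for the peptide PACAP, Rnf180 (-2.64), a ubiquitin ligase, Smoc1 and Coch (-2.43), a secreted matrix protein. Of these 10, 1 passed without EB 3, 2 without EB 2 and 3 without EB+T+E 1. Without EB 1 or EB+T+E 3 it was 7, and without EB+T+E 2 it was 10. All 10 kept their sign without any single array, which was fixed by the choice of genes without overlap. Among genes dim on every EB+T+E array, Kctd8, a subunit of GABA-B receptors, was at least 5.63-fold lower (adjusted p = 0.0058), while Tacr2, a tachykinin receptor (at least 5.99-fold lower; adjusted p = 0.071) and Vstm2l (at least 5.55-fold lower; adjusted p = 0.15) did not pass. In the other direction Krt76, an epithelial keratin (at least 3.14-fold higher; adjusted p = 0.073), and Sox11 (at least 2.19-fold higher; adjusted p = 0.17) did not pass.

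Hormone receptor genes were mostly lower without passing. Of 10 receptors 0 were called, 8 had a negative difference and the median was -0.38. Esr1, the estrogen receptor alpha gene, was at -4.64, -4.96 and -3.03 in EB and at -5.77, -5.50 and -6.37 in EB+T+E, with no overlap (-1.67 ± 0.48, SE; adjusted p = 0.067 in limma). The progesterone receptor gene Pgr differed by -1.38 (adjusted p = 0.34). Other receptors were Esr2 (-0.14), Prlr (-0.44), Gper1 (0.35), Nr3c1 (-0.21), Nr3c2 (-0.84), Vdr (-0.31) and Ghr (0.03), with adjusted p from 0.61 to 0.99. Among 31 estrogen-responsive genes 1 was called lower, against 1.00% of all genes, namely Muc1, an epithelial mucin (-2.93, adjusted p = 0.048 in limma). Muc1 was well above background on only 1 of the EB+T+E arrays, so its size is poorly set. The calcium-binding gene S100g (3.66; adjusted p = 0.11) was at -9.23, -6.46 and -7.37 in EB and at -1.46, -3.87 and -6.76 in EB+T+E, while Egr3 (1.58) and Cyp26b1 (-1.53) did not pass either. Among 20 enzymes of steroid metabolism Cyp17a1, which makes androgen precursors, was the only one called, against 1.00% of all genes called lower. It was at -5.22, -0.02 and -3.45 in EB and at -7.22, -4.98 and -8.91 in EB+T+E, so the groups overlapped. It fell by 4.14 on the log2 scale (adjusted p = 0.032 in limma), but only 1 of the EB+T+E arrays was well above background, so the size is poorly set. Srd5a2, the prostatic 5-alpha reductase, differed by -0.72 (adjusted p = 0.22), Hsd17b2 by -1.80 (adjusted p = 0.18) and Star by -0.99 (adjusted p = 0.29). Of the 14 genes known to rise after androgen withdrawal only Timp1 passed, against 0.700% of all genes called higher. Ctsb differed by 0.62, Mgp by 1.09 and Igfbp3 by -1.40, with adjusted p of 0.11, 0.20 and 0.37 in limma.

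Ventral secretory products differed widely among the EB arrays and less among the EB+T+E arrays. Their mean level ran from -2.03 to 5.96 in EB and from 4.82 to 6.58 in EB+T+E. In control it ran from -0.30 to 5.34 and in T+E from 5.67 to 6.08. The 4 ventral products had a median difference of 3.99 and 0 were called. Scgb1d2, a secretoglobin of prostatein, was at 5.11, -5.20 and 1.24 on EB 1 to 3 and at 4.48, 4.90 and 6.30 on EB+T+E 1 to 3 (4.85 ± 2.14, SE; adjusted p = 0.26 in limma). Scgb1d4 (4.57), Sbp (3.40) and Scgb2a1 (1.88) had the same pattern, low on EB 2 and EB 3 and as high on EB 1 as in the EB+T+E group. The median of the 4 was 7.78 on slide 1, 3.66 on slide 2 and 0.46 on slide 4. Of 7 dorsolateral products 0 were called and the median was -0.77. Agr2, a disulfide isomerase of secretory cells, was at -0.41, 1.37 and 0.35 in EB and at -3.23, 0.71 and -4.06 in EB+T+E (-2.63; adjusted p = 0.074). Tgm4, the prostate transglutaminase, was at 5.43, 6.28 and 5.58 in EB and at 4.07, 6.57 and 1.35 in EB+T+E (adjusted p = 0.21). Msmb differed by -0.58, Pbsn by -0.77, Cd52 by -0.81, Spink1 by 0.84 and Klk1c9 by 4.45, with adjusted p from 0.27 to 0.64, and Spink1 was not well above background on any of the 6 arrays. Secretoglobins and kallikreins belong to gene families whose members a probe may not tell apart.

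Cell type markers placed the differences against the makeup of the tissue. Among 24 smooth muscle genes 0 were called, 13 were lower at an unadjusted p under 0.05 (9.46% of all genes), and the median was -0.91. Myh11, the smooth muscle myosin, was at 2.48, 2.75 and 3.85 in EB and at 0.98, 2.15 and 1.04 in EB+T+E, with no overlap (-1.64; adjusted p = 0.058 in limma), and Lmod1 (-1.91) and Tpm1 (-0.90) had adjusted p of 0.062 and 0.12. Synpo2, dim on every EB+T+E array, was at least 2.72-fold lower (adjusted p = 0.099). Of 19 luminal genes only Muc1 was called, against 1.00% of all genes called lower. The median of the list was -3.0 on slide 1, which holds EB+T+E 1, and 0.44 and 0.17 on slides 2 and 4. Foxa1, a pioneer factor of luminal cells, was lower on all EB+T+E arrays (-1.61; adjusted p = 0.062), and Elf3 (-1.17) and Ovol1 (-1.14) did not pass. Epcam and Cdh1, defining genes of epithelium, were lowest on EB+T+E 1, at -0.34 and -1.18. Among 31 macrophage and dendritic cell genes only Cd163 was called higher, against 0.700% of all genes, and the median was 0.67. Clec4a3 differed by 1.58, Csf1r by 1.19 and Fcgr1a by 1.31, all with adjusted p from 0.16 to 0.20 in limma. The neutrophil and acute inflammation list had a median of 1.25 with 0 of 29 called. Il6 was well above background on 0 of 3 EB arrays and on 2 of 3 EB+T+E arrays (2.74; adjusted p = 0.083). Nos2 (2.44), Trem1 (2.68) and Np4 (-3.84) did not pass. The B cell list (median -1.14, 0 of 25 called) and the T cell list (median -0.82, from -1.80 to 0.05 over the settings tried, 0 of 26 called) had their highest mean level on EB 3, at -2.35 and -2.17, against -6.0 to -3.39 on the other 5 arrays. The part of these cell types in the other differences was not tested.

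**Figure D3:**
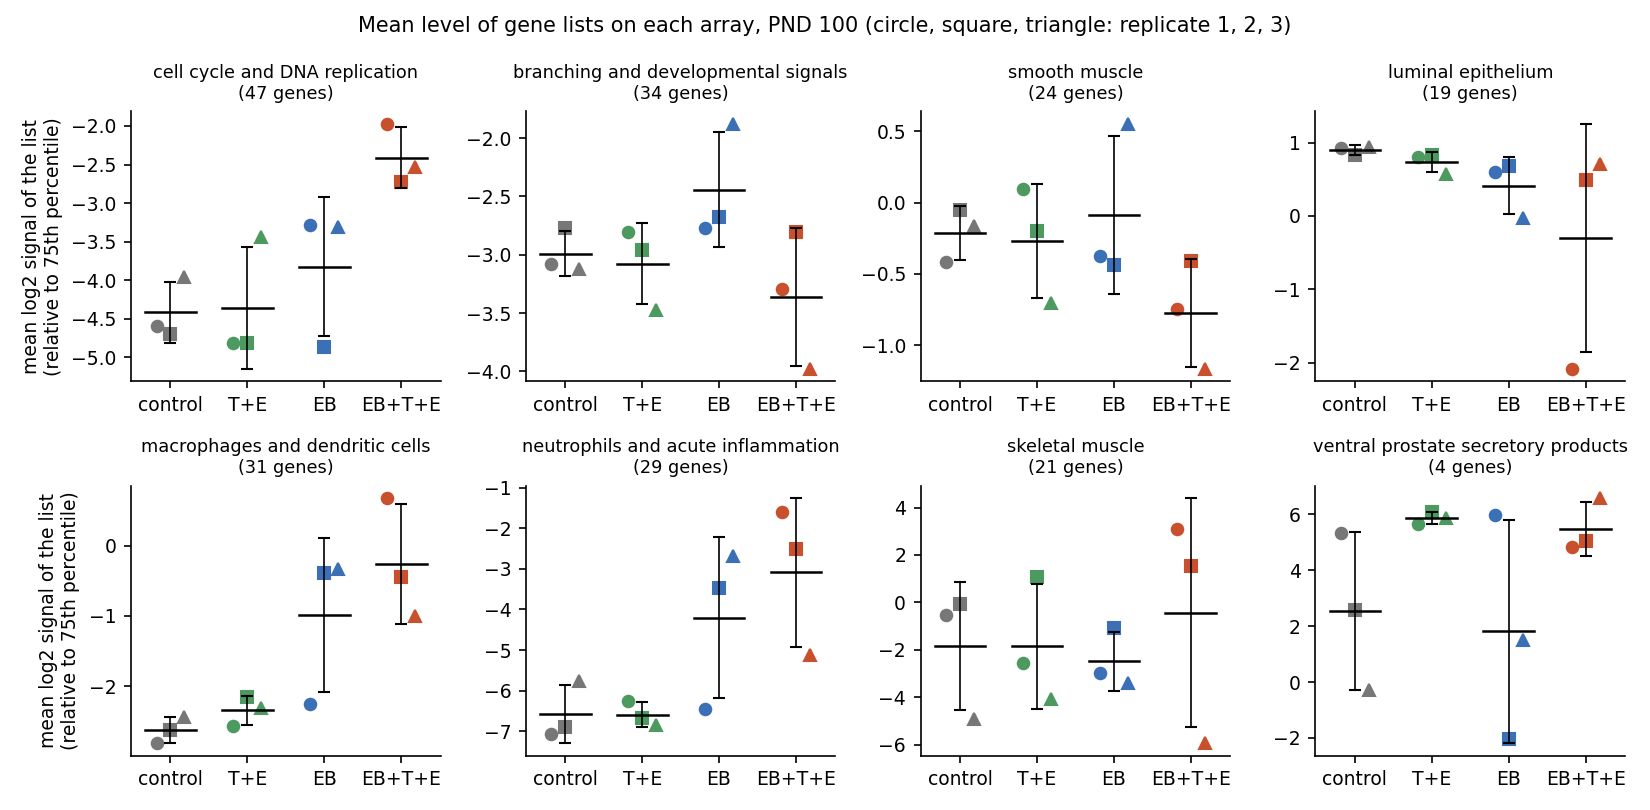
Mean log2 level of 8 gene lists on each array of PND 100, relative to the 75th percentile of the array, for control, T+E, EB and EB+T+E; symbols are replicates, the bar is the group mean and the whisker the SD (n = 3). The EB+T+E arrays lie above all other arrays for the cell cycle list only, and EB+T+E 1 lies apart in luminal genes at -2.09.

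Whether T+E acted differently with and without EB was tested as the difference of the 2 effects at PND 100. In limma 0 of 23134 genes passed (0.00%), with 1998 at an unadjusted p under 0.05 (8.64%), so a difference was not detected with 3 arrays a group. T+E against control called 42 genes (0.182%), 30 higher (0.130%) and 12 lower (0.0519%). The 2 comparisons have no arrays in common. Of the 232 genes lower in EB+T+E than in EB, 205 were also lower in T+E than in control, with a median of -0.41 there, and 5 of them passed. Of the 97 higher genes outside the Gapdh family 56 were also higher in T+E than in control, with a median of 0.03. The share of all genes with each sign is not given beside these counts, so they only describe. Kif6 differed by -3.08 after T+E alone and by -2.97 after T+E added to EB, and Muc1 by -2.73 and -2.93. For Dtl the values were -0.85 after T+E alone and 2.12 after T+E added to EB.

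The same treatments compared at PND 145, after 55 days with implants and on other arrays, called 5310 genes (23.0%), 2446 higher (10.6%) and 2864 lower (12.4%). Of the 232 genes that were lower at PND 100, 88 (37.9%) were called lower at PND 145, which is 3.07% of the genes called lower there, and their median went from -1.63 to -0.62. Of the 97 higher genes outside the Gapdh family 10 (10.3%) were called higher at PND 145, which is 0.409% of the genes called higher there, and their median went from 1.23 to 0.09. Both PND 100 medians come from the arrays that chose these genes, so smaller medians on other arrays are partly fixed by that choice. The test of the difference between the ages passed for 1898 genes (8.20%), 1105 with a more positive value at PND 145 (4.78%) and 793 with a more negative one (3.43%). With only the arrays compared it passed for 3 genes, and without 1 array for 564 (without EB 3 of PND 100) to 3530 (without EB 1 of PND 100). The cell cycle list had a median of 1.45 at PND 100 and 1.51 at PND 145, where 27 of its 47 genes were called higher and 0 lower. Fgfr2 (-1.07; adjusted p = 0.020 in limma), Bmp7 (-1.31; adjusted p = 0.011), Rad54b (-2.58; adjusted p = 5.0e-05) and Rims1 (-2.22; adjusted p = 0.0038) were lower at both ages. The branching and developmental list went from a median of -0.96 to -0.08. At PND 145, 3 of its 34 genes were called higher and 5 lower, against 10.6% and 12.4% of all genes. Sox9 did not pass at PND 145 (-0.69, adjusted p = 0.25 in limma), and Lef1 was positive there (1.38, adjusted p = 0.055). The B cell list went from a median of -1.14 to 4.37 and the T cell list from -0.82 to 3.65.

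**Figure D4:**
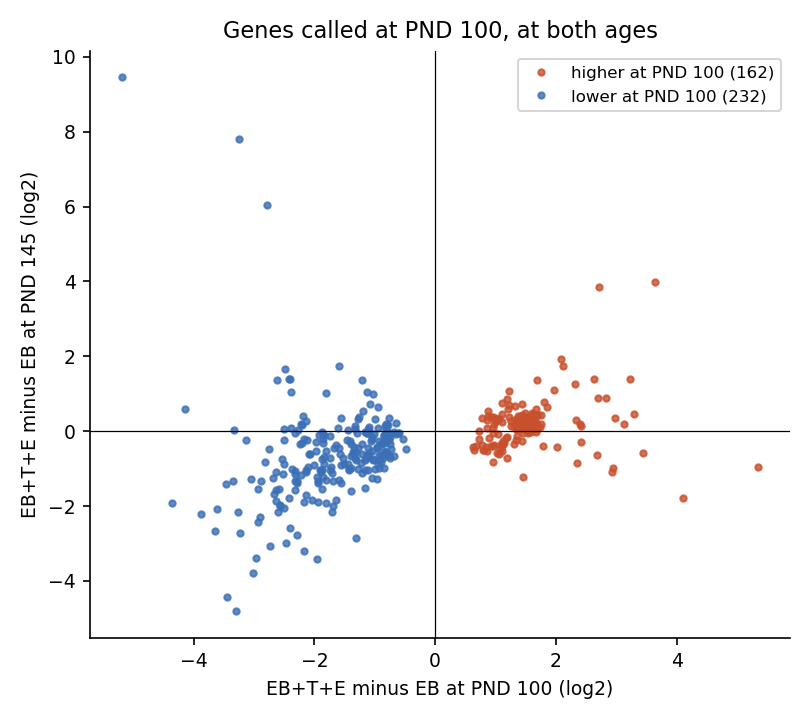
Each point is 1 of the 394 genes called at PND 100, with the difference EB+T+E minus EB at PND 100 (horizontal, log2) against the same difference at PND 145 (vertical, log2). Of the 232 lower genes 189 are also below 0 at PND 145, while the 162 higher genes, 65 of them of the Gapdh family, gather near 0 there with a median of 0.22. Over all genes tested the median at PND 145 was -0.22. The genes were chosen by their PND 100 values, so smaller sizes on the vertical axis are partly fixed by that choice.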

How the data were processed

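The members, gene lists, named-gene rule and motifs were chosen with earlier results of these data known. Per the labels, RNA (500 ng, RIN 8.0 or above) was hybridised to single-colour Agilent arrays. Per the file headers, the deposited values are linear spot intensities from Agilent Feature Extraction 12.0.0.7, with background subtracted and no scaling across arrays. The authors' deposited table holds linear intensities of the same arrays scaled to a common 75th percentile (619). How it was made is not stated here.

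Levels are the log2 processed signal less the log2 75th percentile of the non-control spots on that array. Outlier spots were left out and spots of 1 probe averaged. A probe entered if 3 or more of the 33 arrays showed it well above background (30542 of 45598). Probes were named through RefSeq accessions, symbols and synonyms, and the brightest probe stood for each gene, which left 23134 genes, 15805 with a symbol. A group-means model of 10 groups was fitted with limma 3.58.1 (R 4.3.3; trended, robust empirical Bayes), so standard errors pool the spread of all groups, with Benjamini-Hochberg adjustment at 0.05 over all genes. Of the values on the 6 arrays 17 were missing. A fold against a group that is dim on every array is a lower bound, with the dim side taken per array at its own signal or, if brighter, the dimmest signal that counted as well above background.

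Named genes were, by rule, the 10 highest and 10 lowest called genes with a symbol, well above background on all 6 arrays and without overlap, and the 3 largest bounds in each direction (2 existed upward). Also named were at most 4 genes from each list described, those with the lowest p, every receptor and secretory product, and the 3 highest and 3 lowest age differences. Some genes the rule took are not reported here. Other genes named were chosen after their values were seen. Simulated data were used to test the fit. Replicate numbers did not pair the samples: deviations of same-numbered arrays correlated at -0.44, 0.19 and -0.40. The alternatives of the closing section were also fitted. Python 3.11.15 with pandas 2.3.3 read the files, and figures were drawn with matplotlib 3.10.9.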

Additional observations from a re-analysis of the deposited data

Results flagged for a closer look

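The effect of adding T+E to EB differed between the ages in 1898 genes (PND 145 minus PND 100, limma, adjusted p under 0.05), 1105 with a positive and 793 with a negative difference of log2 effects. The count was 3 with only the arrays compared and 564 to 3530 without 1 array. The named genes below were marked because this test of the difference passed for them.

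Immune transcripts had the largest positive values, with Igkvl15 at 11.80, Jchain, the joining chain of antibodies, at 10.75, Defa5 at 10.45 and the neutrophil defensin Np4 at 10.44. At PND 100 these were high on EB 3 only, where Jchain was at 4.30 against -3.67 to -1.01 on the other 5 arrays. Strongly negative values were found for S100a7l2 at -12.22, the pseudogene Rps4x-ps1 at -11.15, Scgb1d2 at -10.88, Scgb1d4 at -10.62, and a smaller one for Scgb2a1 at -3.50. At PND 100 all 5 were higher on EB 1 than on EB 2 and EB 3. Their probes may bind related transcripts.

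In this test the PND 100 difference is subtracted, so genes chosen for a rise or fall at PND 100 lean to the opposite sign. Among genes that rose at PND 100 the value was -4.03 for Cd209f, -2.64 for Tnnc1 and -2.45 for 2310002L09Rikl, and for Krt76, which did not pass at PND 100, it was -2.68. Among genes that fell it was 4.73 for Cyp17a1, 3.82 for Coch, 3.79 for Lef1 and 2.90 for Kctd8, and for Elf3, which did not pass at PND 100, it was 2.09. Cyp17a1 differed by 0.58 between EB+T+E and EB at PND 145 and did not pass there.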

How the results depend on the processing

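The count of 394 genes (162 higher, 232 lower) was 185 (121 and 64) with normexp background correction, 81 (42 and 39) with array weights, 0 with only the arrays compared and 0 with only the 12 arrays of PND 100 (976 and 2442 at an unadjusted p under 0.05 in limma), and 23 to 1174 without 1 array. The split also moved without a filter on dim probes (156 and 162) and with the authors' deposited table (195 and 166). Quantile scaling (448), a filter at 17 arrays (440), the slide block (350) and the mean of probes (340) stayed within 1.5 times. The test of the T+E effect with against without EB gave 61 genes with array weights and 0 to 338 without 1 array, the highest without EB+T+E 3. The difference between ages gave 3 genes in place of 1898 with only the arrays compared, and 564 to 3530 without 1 array. No named gene that was called reversed its sign. Without 1 array this is fixed in advance for genes whose groups do not overlap. The median changed sign between settings in 21 of 48 lists, among them luminal, T cell, androgen-responsive, androgen-repressed and estrogen-responsive genes. The causes were not tested. With the replicate number as a block, which the data did not bear out as a pairing, the counts were 356 (157 and 199), 0 for the test with against without EB and 1559 for the ages. Genes not well above background, such as Uhrf1 in EB, have poorly set sizes.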
